A study of Mus musculus with 2 samples.

Results

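The genes described here are the 7 core genes of antigen presentation on major histocompatibility complex (MHC) class II, out of 31053 genes in the count matrices of mouse colon epithelium. They were chosen by symbol and not by their values: H2-Aa, H2-Ab1, H2-Eb1, Cd74, H2-DMa, H2-DMb1 and Ciita. All 7 symbols were found in both matrices. The study sequenced single cells in 2 libraries, 1 per group. For the library labelled GFP, c-Kit-creERT2;Rosa26-mTG mice were given 1 intraperitoneal injection of tamoxifen at 1 mg per 20 g. Its cells were sorted for GFP, which marks cells that had used the Kit-driven recombinase and their descendants. The library labelled whole epithelium is unsorted colon epithelium of untreated c-Kit-creERT2 mice. Values are given as found under the GFP label or under the whole-epithelium label. Both groups therefore carry c-Kit-creERT2, and they differ in reporter allele, tamoxifen and sort. The labels used here give no age, strain or number of animals. The study asked what Kit-lineage cells become in the colon. Here the question is how much class II transcript each epithelial class held in each library.

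Class II molecules are pairs of an alpha and a beta chain that carry peptides from endosomes to the cell surface, where CD4 T cells read them. The invariant chain blocks the groove of a new pair and guides it to the endosome. There the DM molecule exchanges the last fragment of that chain for antigenic peptide. Professional antigen-presenting cells express these genes constitutively, while epithelial cells of the gut are known to express them in response to interferon gamma, through the coactivator CIITA.

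On build GRCm38, the annotation places the 3 chain genes H2-Ab1 (chr17:34257689-34269419), H2-Aa (chr17:34282744-34287823) and H2-Eb1 (chr17:34305867-34316674) beside each other on chromosome 17. H2-DMa (chr17:34119541-34139101) and H2-DMb1 (chr17:34153072-34160230) lie in the same region. Ciita is at chr16:10480059-10528418. H2-Aa is on the minus strand, and Ciita and the other 4 genes named here are on the plus strand. CIITA does not bind DNA itself but docks on factors at the X and Y boxes of class II promoters, so these stretches are shown. In the RefSeq promoter table (GRCm38.p6) 4 of the 7 genes had an entry. The X box core and the Y box core, GATTGG, were searched on both strands in the 250 bases before each start. Neither motif overlaps the other in the matches found. The X letters were in 1.00% of all 32851 promoters in the table, the Y letters in 14.6% and both in 0.119%. H2-Eb1 and H2-DMb1 held both. H2-Aa held the Y letters alone, and of 2 entries for H2-DMa, 1 held the Y letters. The stretches from 120 to 21 bases before the start are printed 5′ to 3′ on the gene's own strand, with matches in capitals. H2-Eb1 is at chr17:34305747-34305846 on the plus strand, and H2-Aa at chr17:34287844-34287943 on the minus strand.
H2-Eb1: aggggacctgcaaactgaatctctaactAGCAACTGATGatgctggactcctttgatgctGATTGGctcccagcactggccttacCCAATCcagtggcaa
H2-Aa: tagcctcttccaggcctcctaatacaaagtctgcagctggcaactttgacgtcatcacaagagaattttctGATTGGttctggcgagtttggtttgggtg
The last capitals of H2-Eb1 are the Y letters on the other strand. The X match of H2-DMb1, at chr17:34153096-34153106 on the plus strand, reads AGTAACTGATG, against AGCAACTGATG in H2-Eb1. It lies before the RefSeq start but inside the gene model of H2-DMb1 in GENCODE. A match describes letters in a window and does not show binding.

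The library labelled GFP held 13575 barcodes and 150348319 unique molecular identifiers (UMIs, which count captured transcripts), and the library labelled whole epithelium held 13967 barcodes and 164185392 UMIs. The filter kept 5767 cells under the GFP label, with a median of 15821 UMIs, and 7762 cells under the whole-epithelium label, with a median of 14160 UMIs. The 2 libraries shared 60 barcodes, 19 of which were kept. The deposited records cross the 2 matrices and the 2 barcode lists, and each matrix was given to the label whose barcode list has its size, so every direction below rests on that assignment. Kept cells of the library labelled GFP held 749.8 CPM (UMIs scaled to a common total) of Xist and 0 UMIs of Ddx3y, against 0.0652 CPM and 35.4 CPM under the whole-epithelium label, so the animals differed in sex. Kit, whose gene drives the recombinase, was at 7.82 CPM under the GFP label and 15.2 CPM under the whole-epithelium label. Gt(ROSA)26Sor, the transcript of the reporter's locus, was at 1.14 CPM under the GFP label and 33.8 CPM under the whole-epithelium label. Sex, tamoxifen, reporter, sort and library cannot be told apart from the groups. With 1 library per group there was no replicate and no test. The intervals given are exact 95% intervals for counting error only.

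Class II genes were read in cells of named epithelial classes with no UMI of the leukocyte gene Ptprc: 4168 cells under the GFP label and 5008 under the whole-epithelium label. Epcam, an epithelial surface gene, had a UMI in 99.9% of epithelial cells labelled GFP and 99.1% of those labelled whole epithelium. Clusters were built without the 7 genes and named from marker lists. Of 27 clusters, 22 drew over 95% of their cells from 1 library, so a cluster may be a library as well as a cell state. Colonocyte-like cells are the absorptive cells and numbered 1607 under the GFP label and 1869 under the whole-epithelium label. Goblet-like cells, which make mucus, numbered 951 under the GFP label and 863 under the whole-epithelium label. Stem/TA-like cells join stem and cycling (transit-amplifying) clusters and numbered 1481 under the GFP label and 1931 under the whole-epithelium label. No cluster under the GFP label was named stem, so its stem/TA-like cells are all from clusters scored as cycling. Enteroendocrine-like cells, which secrete hormones, numbered 106 under the GFP label and 323 under the whole-epithelium label. Tuft-like cells without a Ptprc UMI numbered 23 under the GFP label and 22 under the whole-epithelium label, too few to be described by class.

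Summed class II transcript was higher under the GFP label in every class compared. Over all named epithelial classes the 7 genes summed to 1959 CPM under the GFP label and 550 CPM under the whole-epithelium label, a log2 ratio of 1.83 (interval 1.82 to 1.85). At least 2-fold higher under the GFP label were 6 of the 7 genes, where 3.81% of the 14656 genes with at least 20 UMIs passed that fold in that direction. The exception was Ciita. The median gene of all had a log2 ratio of -0.04.

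The chain genes H2-Aa, H2-Ab1 and H2-Eb1 encode the alpha chain of I-A, the beta chain of I-A and the beta chain of I-E. H2-Aa was at 325.6 CPM under the GFP label and 67.5 CPM under the whole-epithelium label, a log2 ratio of 2.27. H2-Ab1 was at 282.3 CPM under the GFP label and 81.5 CPM under the whole-epithelium label, a log2 ratio of 1.79. H2-Eb1 was at 170.9 CPM under the GFP label and 50.6 CPM under the whole-epithelium label, a log2 ratio of 1.76. All 3 chains were thus over 3-fold higher under the GFP label. Of the homologous chain genes, H2-Eb2 had 1 UMI under the GFP label and 2 under the whole-epithelium label.

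Cd74, the invariant chain, at chr18:60803848-60812652 on the plus strand, was the most counted of the 7 genes. It was at 1052 CPM under the GFP label and 303.0 CPM under the whole-epithelium label, a log2 ratio of 1.80. It made up 53.7% of the 7-gene sum under the GFP label and 55.1% under the whole-epithelium label, so the sum follows Cd74 more than any other gene.

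H2-DMa and H2-DMb1 encode the alpha and a beta chain of the DM peptide exchanger. H2-DMa was at 49.0 CPM under the GFP label and 22.7 CPM under the whole-epithelium label, a log2 ratio of 1.11. H2-DMb1 was at 65.2 CPM under the GFP label and 15.0 CPM under the whole-epithelium label, a log2 ratio of 2.11. The partners therefore differed in ratio, with intervals of 1.04 to 1.18 for H2-DMa and 2.04 to 2.19 for H2-DMb1. H2-DMb1 has a near copy, H2-DMb2, which had 3 UMIs under the GFP label and 1 under the whole-epithelium label, and reads of the pair may be split or lost. Class II genes also vary in sequence between mouse strains, and the part of this in the counts was not tested. H2-Oa and H2-Ob, which encode the DO molecule that restrains DM, had 0 UMIs each under the GFP label and 1 and 0 UMIs under the whole-epithelium label.

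Ciita differed least. It was at 14.1 CPM under the GFP label and 9.44 CPM under the whole-epithelium label, a log2 ratio of 0.58 (0.46 to 0.70). Its share of the 7-gene sum was 0.719% under the GFP label and 1.72% under the whole-epithelium label. The class II chains were therefore further apart between the libraries than the transcript of their coactivator.

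**Figure D1:**
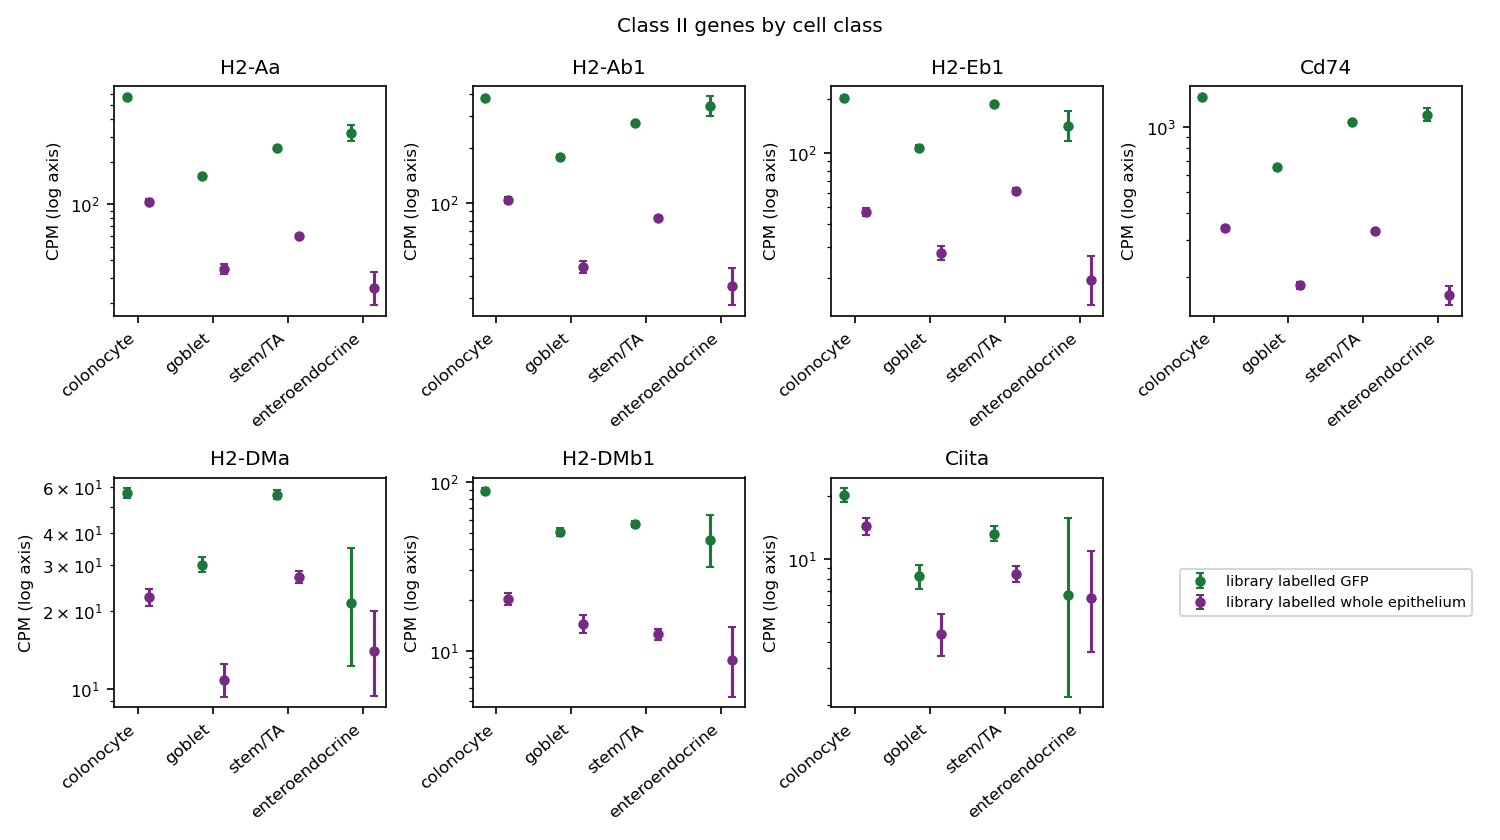
CPM of each of the 7 genes (log axis, with exact Poisson 95% intervals for counting error) in 4 epithelial classes, with the library labelled GFP in green on the left and the library labelled whole epithelium in purple on the right of each class. The points labelled GFP lie above the others for the chains, Cd74 and H2-DMb1 in every class, while the 2 points of Ciita overlap in enteroendocrine-like cells, at 6.71 CPM under the GFP label and 6.52 CPM under the whole-epithelium label.

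The library labelled GFP ranked colonocyte-like cells first, at 2696 CPM (2679 to 2714) of the 7-gene sum, then enteroendocrine-like cells at 2024 CPM (1924 to 2129), stem/TA-like cells at 1896 CPM (1883 to 1910) and goblet-like cells at 1185 CPM (1173 to 1198). Under the whole-epithelium label colonocyte-like cells were at 653 CPM (644 to 662), stem/TA-like cells at 580 CPM (573 to 586), goblet-like cells at 320.2 CPM (312 to 329) and enteroendocrine-like cells at 274.2 CPM (252 to 297). Colonocyte-like cells thus led and goblet-like cells were below stem/TA-like cells in both libraries, and no neighbours in either order had overlapping intervals. For single genes some did: H2-DMa was at 56.7 CPM (54.2 to 59.4) in colonocyte-like and 55.9 CPM (53.6 to 58.2) in stem/TA-like cells under the GFP label. The enteroendocrine-like cells were shallow, with medians of 3653 UMIs under the GFP label and 4193 under the whole-epithelium label before cells with Ptprc were left out.

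In colonocyte-like cells the log2 ratio of the sum was 2.05 (2.02 to 2.07), and 6 of the 7 genes were at least 2-fold higher under the GFP label, against 4.72% of all genes tested in that class. H2-Aa was the furthest apart, at 568.7 CPM under the GFP label and 104.4 CPM under the whole-epithelium label, a log2 ratio of 2.45. Ciita had the smallest difference, at 20.3 CPM under the GFP label and 14.3 CPM under the whole-epithelium label.

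In goblet-like cells the log2 ratio was 1.89 (1.85 to 1.93), with 6 of the 7 genes at least 2-fold higher, against 3.94% of all genes. Cd74 was at 652.2 CPM under the GFP label and 183.4 CPM under the whole-epithelium label. Ciita was at 8.24 CPM under the GFP label and 4.34 CPM under the whole-epithelium label, a log2 ratio of 0.92 (0.54 to 1.32). Of the 4 classes, goblet-like cells had the Ciita ratio closest to 2-fold.

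In stem/TA-like cells the log2 ratio was 1.71 (1.69 to 1.73), with 6 of the 7 genes at least 2-fold higher, against 4.36% of all genes. H2-DMb1 was the furthest apart, at 56.3 CPM under the GFP label and 12.6 CPM under the whole-epithelium label, a log2 ratio of 2.16. This class joins clusters that differ between the libraries. The clusters scored as cycling were 3 and 11 under the GFP label and 5 under the whole-epithelium label. The 10 leading genes of cluster 11 included 0 cycling markers and the stem marker Smoc2, so these clusters are compared by number. Cluster 3 held 849 CPM and cluster 11 held 3510 CPM of the 7 genes under the GFP label, against 1096 CPM in cluster 5 under the whole-epithelium label. Cluster 5 thus lay between them. The 1140 cells of the 2 clusters named stem, all under the whole-epithelium label, held 114.5 CPM of the 7 genes. Cluster 8, with 622 of these cells, had 0 stem markers among its 10 leading genes, so the name stem is weak there. The 1140 cells entered only that side of the class, so the 6 of 7 genes are not a count for cycling clusters alone. All cells scored as cycling under the GFP label held 1896 CPM, against 1096 CPM in cluster 5.

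In enteroendocrine-like cells the sum differed most of the 4 classes, with a log2 ratio of 2.88 (2.75 to 3.02). These shallow cells were not of the same clusters: cluster 22 had 89 cells under the whole-epithelium label and 0 under the GFP label. At least 2-fold higher were 5 of the 7 genes, against 3.89% of all genes. H2-DMa and Ciita, with 16 and 5 UMIs under the GFP label, had intervals that included 0. Cells with at least 20 class II UMIs were 15.1% of enteroendocrine-like cells under the GFP label and 1.86% under the whole-epithelium label.

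Stem and cycling cells were also taken cell by cell from marker UMIs, whatever their cluster. Lgr5 marks crypt base stem cells. Cells with an Lgr5 UMI numbered 90 under the GFP label and 473 under the whole-epithelium label, and held 2978 CPM under the GFP label and 636 CPM under the whole-epithelium label of the 7 genes, a log2 ratio of 2.23 (2.18 to 2.27). All 7 genes were at least 2-fold higher in these cells under the GFP label, Ciita included, against 4.14% of all genes. Where they lay differed: of the 90 cells under the GFP label, 37 were in cluster 11 and 30 in the goblet cluster, and of the 473 cells under the whole-epithelium label, 139 were in cluster 5 (cycling) and 88 and 126 in the 2 clusters named stem. Cells with UMIs of at least 5 cycling markers numbered 1697 under the GFP label and 2158 under the whole-epithelium label. They held 1669 CPM under the GFP label and 636 CPM under the whole-epithelium label, a log2 ratio of 1.39 (1.38 to 1.41), with 5 of the 7 genes at least 2-fold higher, against 4.36% of all genes. H2-DMa and Ciita were the other 2, with log2 ratios of 0.76 and 0.17. Under the GFP label, Lgr5-detected cells were above cycling cells without Lgr5, at 2978 CPM against 1606 CPM (log2 0.89, 0.86 to 0.92). Under the whole-epithelium label Lgr5-detected cells were at 636 CPM against 621 CPM in cycling cells without Lgr5, with a log2 ratio of 0.03 and an interval that reached 0.

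Clusters were far apart within a library, also within a class. Colonocyte-like clusters 7, 9 and 16 held 5108, 1805 and 1054 CPM of the 7 genes under the GFP label. Colonocyte-like clusters 4, 10 and 14 held 1089, 434 and 133 CPM under the whole-epithelium label. Under the GFP label the 7 genes ran from 5108 CPM in cluster 7, a colonocyte-like cluster led by Atp12a, down to 849 CPM in cluster 3, a cycling cluster. Cluster 11, scored as cycling, was at 3510 CPM. Under the whole-epithelium label the highest were cluster 5 (cycling), at 1096 CPM, and cluster 4, a colonocyte-like cluster led by Fabp6, at 1089 CPM. The lowest was cluster 8, at 58.7 CPM. It was named stem on a score of 0.863, with 0 stem markers among its 10 leading genes. The lowest named cluster labelled GFP, at 849 CPM, lay below the 2 highest labelled whole epithelium and above all other named clusters of at least 50 cells there.

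**Figure D2:**
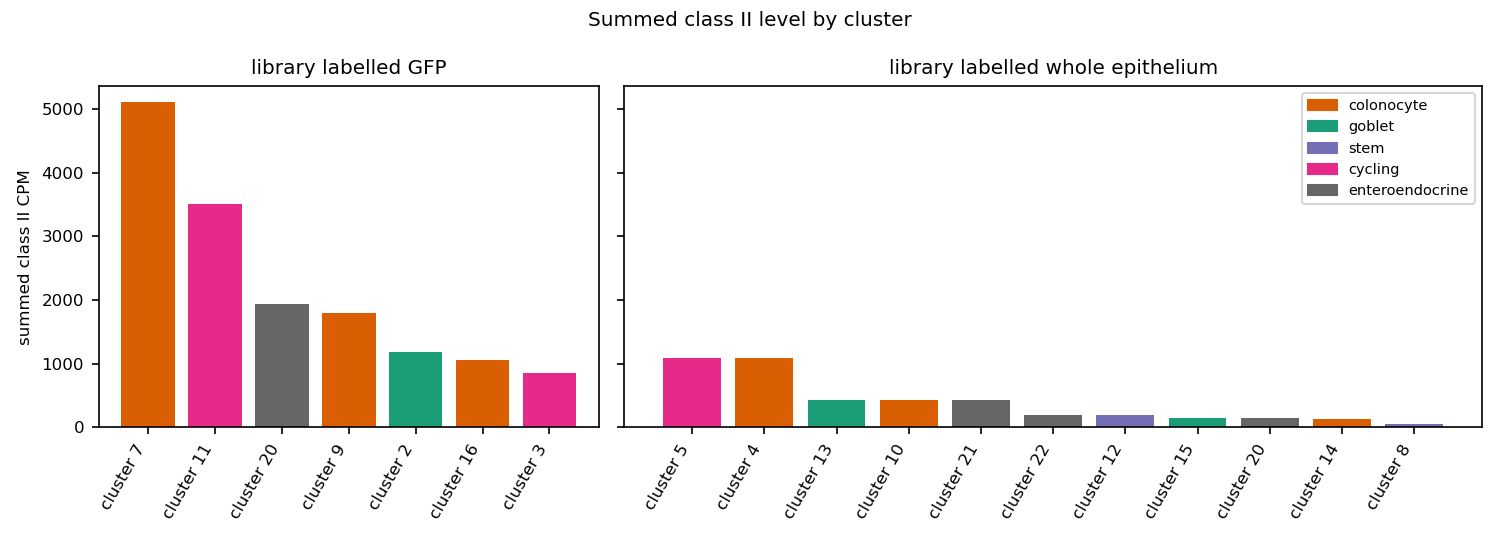
Summed CPM of the 7 genes in each named cluster with at least 50 cells of the library (bars from 0, coloured by class), for the library labelled GFP on the left and the library labelled whole epithelium on the right. Cluster 7 at 5108 CPM and cluster 11 at 3510 CPM stand over all others, and no cluster labelled whole epithelium passes 1096 CPM.

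Colonocytes differ along the colon and along the crypt, so colonocyte-like cells were divided by 2 sets of markers. This division was chosen after values had been seen. Cells with at least 3 UMIs of Atp12a, Tgm3 and Slc37a2, and more of these than of the bile acid genes Fabp6, Slc10a2 and Slc51a, make the Atp12a group, and the reverse makes the Fabp6 group. In the Atp12a group the 505 cells labelled GFP held 4979 CPM of the 7 genes and the 662 cells labelled whole epithelium 144.7 CPM, which is 34.4-fold (log2 5.10, 5.04 to 5.17). All 7 genes were at least 2-fold higher there, where 4.92% of all genes were. H2-Aa stood at 1142 CPM under the GFP label and 23.1 CPM under the whole-epithelium label, and Ciita at 38.0 CPM under the GFP label and 4.63 CPM under the whole-epithelium label. In the Fabp6 group the 297 cells labelled GFP held 1379 CPM and the 800 cells labelled whole epithelium 1130 CPM, a log2 ratio of 0.29 (0.25 to 0.32). None of the 7 genes was 2-fold higher in that group, where 3.8% of all genes were, and Ciita was at 9.26 CPM under the GFP label, against 22.0 CPM under the whole-epithelium label (log2 -1.25). Cells of neither group were at 1891 CPM under the GFP label and 474.0 CPM under the whole-epithelium label, a log2 ratio of 2.00, with 6 of the 7 genes at least 2-fold higher, against 7.67% of all genes. The Atp12a group was therefore the higher of the pair under the GFP label and the lower of the pair under the whole-epithelium label. Without the Atp12a group, the log2 ratio of colonocyte-like cells was 0.77 and that of all classes 1.44.

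**Figure D3:**
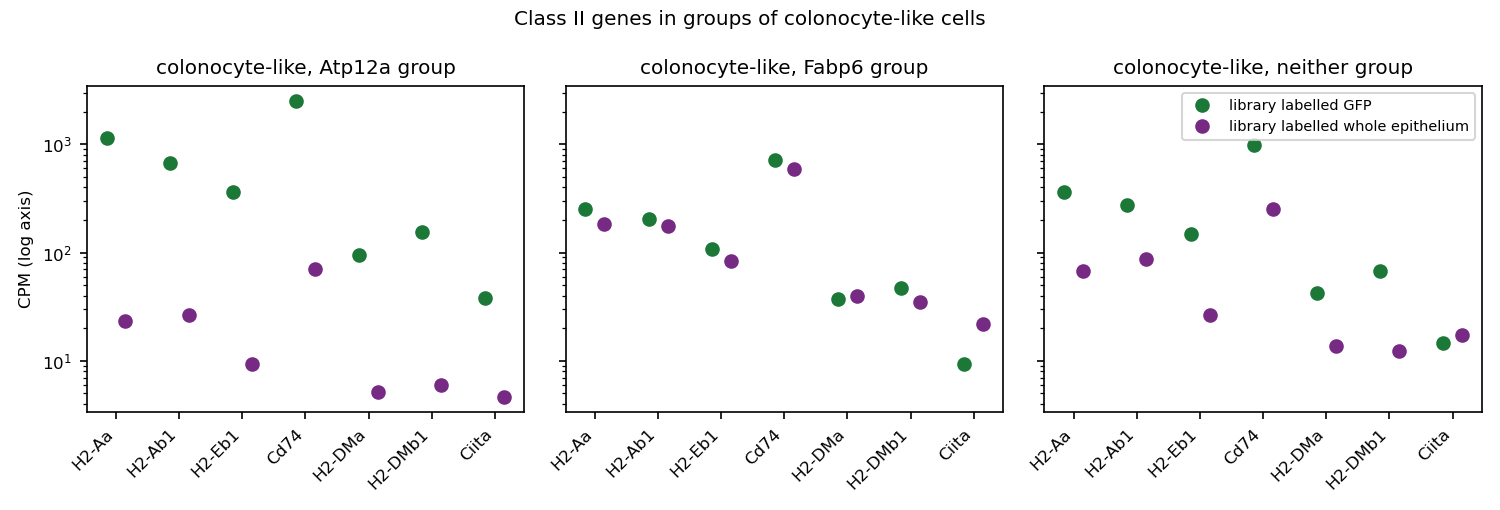
CPM of the 7 genes (log axis) in the Atp12a group, the Fabp6 group and the remaining colonocyte-like cells, with the library labelled GFP in green and the library labelled whole epithelium in purple. The libraries are 34.4-fold apart in summed level in the Atp12a group and close together in the Fabp6 group, where Ciita is lower under the GFP label.

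Single cells differed more under the whole-epithelium label. Of its cells, 43.3% had no UMI of any of the 7 genes, against 1.18% under the GFP label. The 10% of cells with the most class II UMIs held 37.7% of all class II UMIs under the GFP label and 78.6% under the whole-epithelium label. Colonocyte-like cells had a median of 39 class II UMIs under the GFP label, with a 90th percentile of 128, against a median of 1 and a 90th percentile of 34 under the whole-epithelium label. Goblet-like cells had a median of 13 and a 90th percentile of 95 under the GFP label, against 1 and 13 under the whole-epithelium label. Stem/TA-like cells had a median of 30 and a 90th percentile of 132 under the GFP label, against 1 and 59 under the whole-epithelium label. Most cells labelled whole epithelium were thus near 0 while a minority reached the levels of cells labelled GFP. Cells with at least 20 class II UMIs were 57.7% (56.2% to 59.2%) under the GFP label and 13.7% (12.7% to 14.6%) under the whole-epithelium label. Those with 15 to 24 UMIs, near that cut, were 10.9% under the GFP label and 3.27% under the whole-epithelium label. With each cell thinned to 10000 UMIs and shallower cells left out, 58.9% of 3458 cells under the GFP label and 16.6% of 3455 cells under the whole-epithelium label had 10 or more class II UMIs. The 20-UMI cells held the genes jointly: 92.3% of them under the GFP label and 87.0% under the whole-epithelium label had UMIs of all of Cd74, H2-Aa, H2-Ab1 and H2-Eb1. Ciita was detected in 35.0% of them under the GFP label and 50.1% under the whole-epithelium label.

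**Figure D4:**
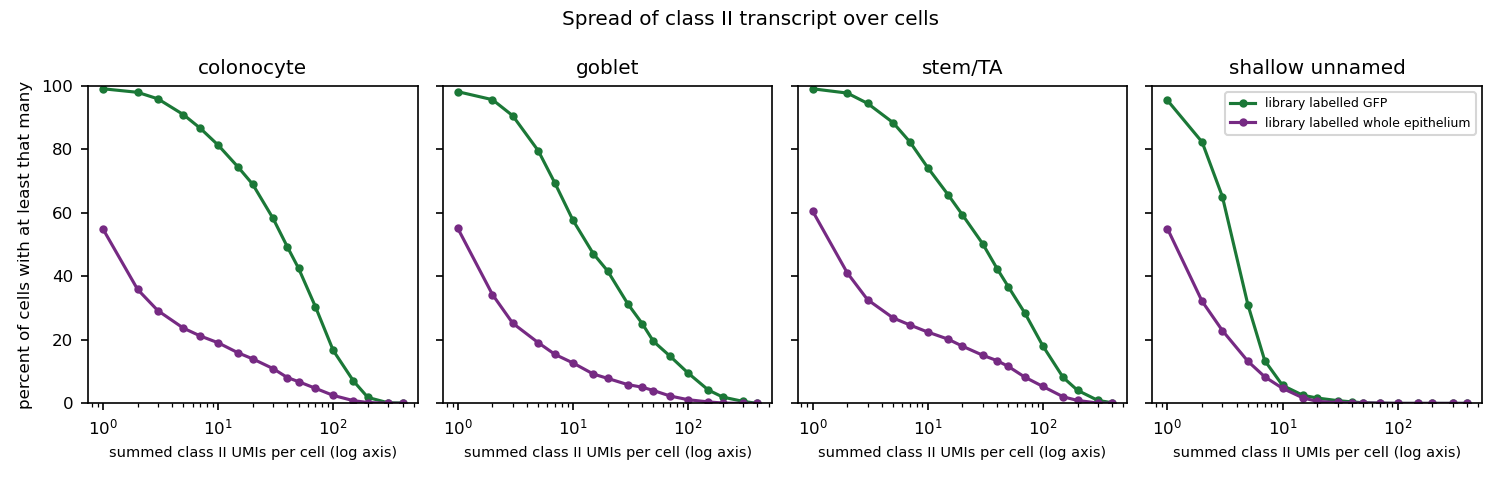
Percent of cells (vertical axis) that hold at least a given number of summed class II UMIs (log axis) in 3 epithelial classes and in shallow unnamed clusters, with the library labelled GFP in green and the library labelled whole epithelium in purple. The GFP curves stay near 100% at 1 UMI and the others begin near 55% to 61%, and in shallow clusters, with median depths of 1834 UMIs under the GFP label and 2344 under the whole-epithelium label, few cells reach 20 UMIs.

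Free RNA gives UMIs to cells that do not make a gene, so the same counts were taken outside the named epithelial classes. Shallow unnamed clusters, with median depths of 1834 UMIs under the GFP label and 2344 under the whole-epithelium label, held 4.29 class II UMIs per cell under the GFP label and 2.05 under the whole-epithelium label. As CPM this was 1767 (1723 to 1811) under the GFP label and 473 (456 to 490) under the whole-epithelium label, against 1959 under the GFP label and 550 under the whole-epithelium label in named epithelial classes. The level of the shallow clusters labelled GFP was above that of goblet-like cells and of cluster 3 in the same library. That of the shallow clusters labelled whole epithelium was above that of goblet-like and enteroendocrine-like cells in their library. In them 95.5% of cells under the GFP label and 55.1% under the whole-epithelium label had at least 1 class II UMI, which is close to the shares of named epithelial cells, 98.8% under the GFP label and 56.7% under the whole-epithelium label. Neither the CPM nor the share of cells with 1 UMI therefore set the named classes far apart from the shallow clusters. At least 20 UMIs were in 1.68% of the shallow cells under the GFP label and 0.628% under the whole-epithelium label, a share that their low depth limits. The part of free RNA in the level of each class was not tested. T/NK-like cells, kept here with their Ptprc UMIs, numbered 57 under the GFP label, with a median of 3 class II UMIs at a median depth of 1957, and 250 under the whole-epithelium label, with a median of 0 at a median depth of 4226. Their means, 15.9 UMIs per cell under the GFP label and 16.2 under the whole-epithelium label, were set by few cells: the top 10% held 80.5% of the UMIs under the GFP label and 97.4% under the whole-epithelium label. The ratio of the chain genes differed between classes of a library: the counts of H2-Aa per H2-Ab1 under the GFP label were 1.51 (1.47 to 1.54) in colonocyte-like, 0.879 (0.844 to 0.916) in goblet-like and 0.898 (0.875 to 0.923) in stem/TA-like cells, and 1.27 (1.16 to 1.38) in shallow clusters. Under the whole-epithelium label they were 1.00 (0.953 to 1.05), 0.781 (0.702 to 0.869) and 0.719 (0.687 to 0.752) in the same classes, and 0.902 (0.785 to 1.04) in shallow clusters. These are ratios of UMIs and not of protein, and are compared between cells only.

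Professional antigen-presenting cells express the same 7 genes, so their markers were counted in the epithelial cells. Of 21 marker genes, all measured, 13 had a UMI in the epithelial cells under the GFP label and 17 in those under the whole-epithelium label. Fcgr1, Flt3 and Cd209a were among those at 0 in both, and Cd22, C1qc, Xcr1 and Clec9a were at 0 under the GFP label. By class, the summed list ran between 32.3 and 96.9 CPM under the GFP label and between 20.6 and 42.9 CPM under the whole-epithelium label, higher under the GFP label in each class. Cd14 gave 6792 of the 6908 UMIs under the GFP label and 3525 of the 3706 under the whole-epithelium label. Cd14 encodes a receptor for bacterial lipopolysaccharide. Without it, the list held 1.12 CPM under the GFP label and 1.73 CPM under the whole-epithelium label. Leaving out all cells with a UMI of these genes other than Cd14 gave a log2 ratio of 1.82. Leaving out those with Cd14 as well removed 56.3% of cells labelled GFP and 40.3% of cells labelled whole epithelium, and the log2 ratio was 1.56 over all classes, 0.97 in goblet-like and 0.76 in stem/TA-like cells. By class it removed 77.8% of stem/TA-like, 59.9% of goblet-like and 37.1% of colonocyte-like cells under the GFP label. Under the whole-epithelium label it removed 59.9%, 44.6% and 23.0% of the same classes, so the class ratios rest on unequal remainders. The part of Cd14 in the result was not tested.

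The genes that act on class II promoters and in interferon gamma signalling differed by less than 2-fold between the libraries over all classes. The list of class II transcription has 9 genes, among them Ciita, which is also 1 of the 7 genes. Of these 9, 0 were at least 2-fold higher and 0 at least 2-fold lower under the GFP label over all classes. Of all genes, 3.81% passed 2-fold upward and 8.42% downward. The median log2 ratio of the 9 was 0.03, against -0.04 for all genes. The subunits of the complexes at the X and Y boxes were close: Rfx5 had a log2 ratio of -0.18, Rfxap of -0.02, Rfxank of 0.03, Nfya of 0.03, Nfyb of 0.17, Nfyc of -0.06 and Creb1 of 0.25. Nlrc5, the coactivator of MHC class I, had a log2 ratio of 0.36, with 1.43 in stem/TA-like and -0.63 in colonocyte-like cells. Of 7 genes of interferon gamma signalling, 0 passed 2-fold either way, with a median of -0.04. The receptor genes Ifngr1 and Ifngr2 had log2 ratios of -0.04 and 0.27, the kinases Jak1 and Jak2 of -0.03 and -0.04, the factor Irf1 of -0.08 and the feedback inhibitor Socs1 of -0.52.

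Over all classes, other targets of interferon gamma were lower in median under the GFP label, while groups of colonocyte-like cells differed. Of 12 measured, 0 were at least 2-fold higher and 5 at least 2-fold lower under the GFP label, against 3.81% and 8.42% of all genes, and their median log2 ratio was -0.75. The 5 were the chemokines Cxcl9, at 2.38 CPM under the GFP label and 16.8 CPM under the whole-epithelium label, and Cxcl10, at 6.86 CPM under the GFP label and 19.6 CPM under the whole-epithelium label, the tryptophan-degrading enzyme Ido1, at 2.06 CPM under the GFP label and 14.2 CPM under the whole-epithelium label, and the GTPases Iigp1, at 45.8 CPM under the GFP label and 139.2 CPM under the whole-epithelium label, and Gbp3, at 5.86 CPM under the GFP label and 13.6 CPM under the whole-epithelium label. Cxcl9, Cxcl10, Iigp1 and Ido1 were at least 2-fold lower in colonocyte-like, goblet-like and stem/TA-like cells too, where 6.05%, 4.92% and 5.89% of all genes were. The immunoproteasome subunits Psmb8 and Psmb9 were higher under the GFP label over all classes, with log2 ratios of 0.49 and 0.59. In the Atp12a group of colonocyte-like cells, 8 of the 12 were at least 2-fold higher under the GFP label and 1 at least 2-fold lower. The median log2 ratio there was 1.20, and 4.92% and 5.96% of all genes passed 2-fold upward and downward. In the Fabp6 group 0 were higher and 11 lower, with a median of -2.77, against 3.8% and 5.84% of all genes. In cells of neither group 0 were higher and 10 lower, with a median of -2.58, against 7.67% and 6.15%.

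Of the peptide-loading list, 7 genes had at least 20 UMIs. H2-DMa and H2-DMb1 were the 2 at least 2-fold higher under the GFP label, where 3.81% of all genes were. The proteases that cut antigen and the invariant chain were not: Ctss had a log2 ratio of -0.63, Ctsl of -0.80, Ctsb of -0.27, Ctsd of 0.07 and Lgmn of -0.79. Among 5 genes of co-stimulation and turnover with at least 20 UMIs, the inhibitory ligand Cd274 was at 2.41 CPM under the GFP label and 5.65 CPM under the whole-epithelium label (log2 -1.23). March1, whose product marks class II for degradation, had 27 UMIs under the GFP label and 9 under the whole-epithelium label (log2 1.60, 0.47 to 2.88). The co-stimulatory genes Cd80, Cd86 and Cd40 had 0, 2 and 1 UMIs under the GFP label and 2, 2 and 3 UMIs under the whole-epithelium label.

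Within each library, interferon gamma targets were higher in median in the cells with more class II UMIs. Epithelial cells with at least 20 class II UMIs were set beside the other cells of their class, as a description, since class II UMIs, those of Ciita included, chose the cells. Depth differed too: in stem/TA-like cells their median was 25797 UMIs, against 20998 in the other cells, under the GFP label, and 28972 against 25000 under the whole-epithelium label. In goblet-like cells the medians were 36131 against 18411.5 under the GFP label and 33179.5 against 17669 under the whole-epithelium label. In colonocyte-like cells they were 19196 against 16731 under the GFP label and 21896 against 11595 under the whole-epithelium label. The 20-UMI cells were thus deeper in every class shown. Where a class joins several clusters, the 20-UMI cells and the others may also come from different clusters. In stem/TA-like cells, class II UMIs per cell were 99.8 in cluster 11 and 24.3 in cluster 3 under the GFP label. Under the whole-epithelium label they were 35.9 in cluster 5, 1.54 in cluster 8 and 4.47 in cluster 12. Goblet-like cells labelled GFP were all from cluster 2. The parts of depth and cluster in what follows were not tested. Of the 12 interferon gamma targets, 9 were at least 2-fold higher in the 20-UMI stem/TA-like cells under the GFP label, where 4.43% of all genes were, and 12 in those under the whole-epithelium label, where 2.23% were. In goblet-like cells the number was 5 under the GFP label, beside 3% of all genes, and 12 under the whole-epithelium label, beside 4.37%. In colonocyte-like cells it was 9 under the GFP label, beside 4.15% of all genes, and 7 under the whole-epithelium label, beside 2.26%. Goblet-like cells labelled GFP had the fewest targets past 2-fold, and there the median log2 ratio of the 12 was 0.93, against 0.11 for all genes. Ciita was at 18.6 CPM in the 20-UMI stem/TA-like cells and 2.95 CPM in the others under the GFP label, and at 32.9 CPM in the 20-UMI cells and 1.80 CPM in the others under the whole-epithelium label. Iigp1 was at 71.3 CPM in the 20-UMI cells and 6.11 CPM in the others under the GFP label, and at 570.4 CPM against 35.9 CPM under the whole-epithelium label. Cxcl9 was at 2.09 CPM in the 20-UMI cells and 0.137 CPM in the others under the GFP label, and at 87.2 CPM against 3.44 CPM under the whole-epithelium label. The 20-UMI stem/TA-like cells labelled GFP held less Ciita, Iigp1 and Cxcl9 than those labelled whole epithelium.

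**Figure D5:**
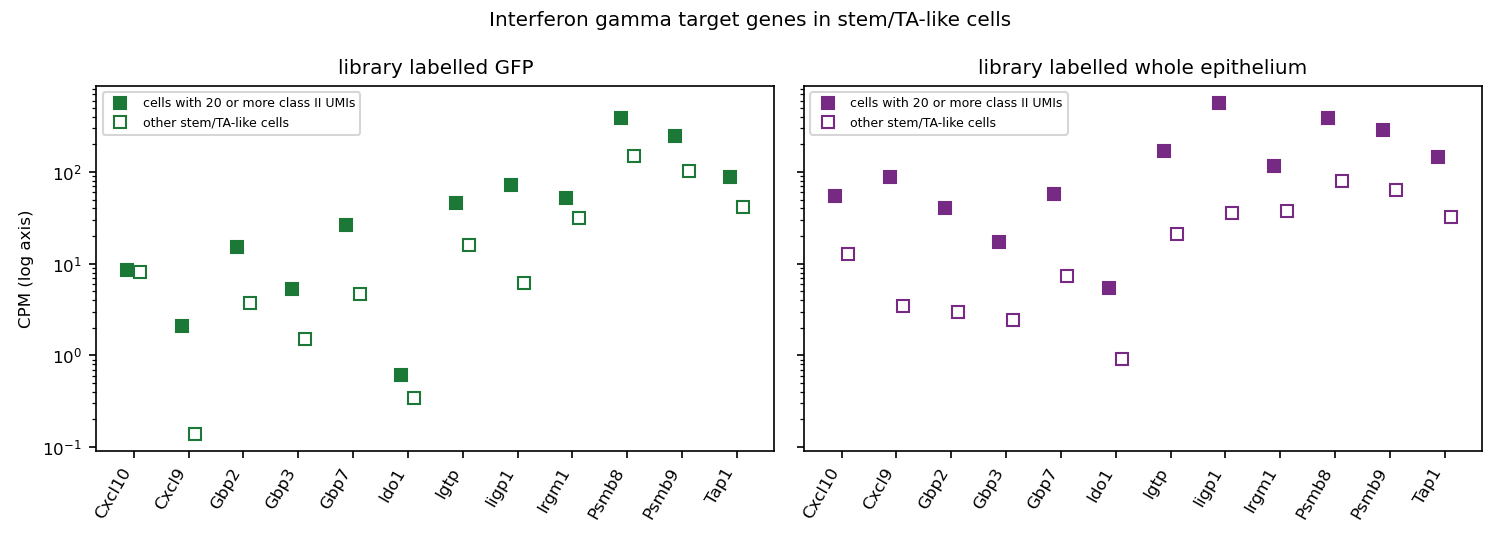
CPM (log axis) of 12 interferon gamma target genes in stem/TA-like cells with at least 20 class II UMIs (filled squares) and in the other stem/TA-like cells (open squares), for the library labelled GFP on the left and the library labelled whole epithelium on the right. Filled squares lie above open ones, by the least for Cxcl10 under the GFP label (8.63 and 8.03 CPM).

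The genes most like the 7 across clusters were mainly interferon-induced GTPases and genes of MHC class I peptide supply. Pearson's r of log2(CPM + 1) with the mean of the 7 genes was taken over the 8 clusters labelled GFP and the 15 labelled whole epithelium with at least 50 cells, unnamed clusters included, for 10639 genes, and genes were ranked by the lower of the 2 values. Among the first 10 were Igtp (0.92), Gm4951 (0.90), Ifi47 (0.87), Psmb8 (0.85), Psmb9 (0.83), Tap1 (0.80), Tapbpl (0.78), Iigp1 (0.78) and Irgm2 (0.77). Clusters of a library share its depth and free RNA, so r is a description. Igtp, Ifi47, Iigp1 and Irgm2 are interferon-induced GTPases, and Psmb8, Psmb9, Tap1 and Tapbpl serve peptide supply to MHC class I. Over all classes together none of the 10 was 2-fold higher under the GFP label, where 3.81% of all genes were: their log2 ratios ran between -1.60 for Iigp1 and 0.59 for Psmb9, where the 7 genes ran between 0.58 and 2.27. In stem/TA-like cells Psmb8 was past 2-fold, at 306.8 CPM under the GFP label and 145.0 CPM under the whole-epithelium label (log2 1.08, 1.04 to 1.12).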

How the data were processed

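The authors deposited raw counts of UMIs per gene and barcode, from 3′ v2 droplet capture per the labels' protocols. The submitters' processing notes name Cell Ranger 2.1.1 and build mm10, while both matrix headers give 3.1.0. Barcodes were kept with at least 500 genes, 1000 UMIs and at most 25% mitochondrial UMIs. Scrublet (scanpy 1.11.5) called 1 cell labelled GFP and 0 labelled whole epithelium, which is under 0.5% of cells and was read as a failure of the caller, so no cell was removed as a doublet. Both libraries were clustered together on 2000 variable genes without the 7 class II genes (4 had been among them), 30 principal components, 15 neighbours and leidenalg 0.10.2 at resolution 1.0. Clusters were scored for each class by the mean log2 fold of that marker list against the library's median cluster. The best class was given where its score was at least 0.5 with at least 3 markers raised 2-fold, and 20 of 27 clusters were named. Clusters whose median depth was under 1/3 of their library's were named only from a score of 1.5. UMIs were summed per library and class and given as CPM, with exact Poisson intervals for CPM, conditional binomial intervals for log2 ratios (library labelled GFP over library labelled whole epithelium) and Clopper-Pearson intervals for shares. With 1 library per group no p-value was computed. Interval coverage was tested on simulated counts that held counting error alone. Spread between cells or libraries was not simulated, so coverage under such spread was not tested. A fold counts genes with at least 20 UMIs in both libraries together, with a floor of 3 UMIs. The 7 genes are named in every class, pathway genes where past 2-fold plus all transcription and receptor genes, and the 10 most alike by rank; some of these genes are not reported here. The genes, lists and rules were chosen with earlier results of these data known. Of 18 alternatives, 13 were planned and 5 added after seeing the data. Gene coordinates are from GENCODE vM21 (GRCm38), matched by identifier for all 7 genes. Enteroendocrine-like, gated and colonocyte groups were read in the same way.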

Additional observations from a re-analysis of the deposited data

Results flagged for a closer look

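The contrast between 2 groups of colonocyte-like cells pointed in opposite ways in the 2 libraries. The summed class II level of the Atp12a group over the Fabp6 group had a log2 ratio of 1.85 (1.82 to 1.88) in the library labelled GFP, at 4979 CPM in the Atp12a group and 1379 CPM in the Fabp6 group. It was -2.97 (-3.04 to -2.89) in the library labelled whole epithelium, at 144.7 CPM in the Atp12a group and 1130 CPM in the Fabp6 group. With 1 library per group this difference was not tested, and the cell groups were chosen after values had been seen.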

How the results depend on the processing

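No paired analysis was possible because each group is 1 library. In the order all classes, colonocyte-like, goblet-like and stem/TA-like, the summed log2 ratios were 1.83, 2.05, 1.89 and 1.71, and other settings moved them as follows, with values within the counting interval not listed. Without cells holding a UMI of any antigen-presenting cell marker they were 1.56, 1.72, 0.97 and 0.76. With at most 10% mitochondrial UMIs they were 1.91, 2.15, 2.101 and 1.92. With each cell thinned to 2000 UMIs they were 2.02, 2.34, 2.02 and 1.65. With clusters weighted equally they were 2.45, 2.27, 2.00 and 2.28, and with the 7 genes kept in the clustering 1.90, 2.12, 1.99 and 1.88. With cells weighted equally the first 3 were 2.07, 2.38 and 2.01. With scaling by the median ratio of all genes they were 1.88, 2.08 and, for stem/TA-like, 1.67. Without mitochondrial genes in the total, all classes gave 1.85 and stem/TA-like cells 1.73. At resolution 0.5 all classes gave 1.90 and colonocyte-like cells 2.17. Stem/TA-like cells gave no value there, because no cluster with cells labelled GFP was named stem or cycling. A cluster with 1499 cells labelled GFP stayed unnamed and was left out of the all-class value. Clusters named stem and cycling stayed in it under the whole-epithelium label. At 5000 UMIs per cell colonocyte-like cells gave 2.01. Without the cluster with the most class II UMIs in each library the ratios were 2.16, 2.31 and, for stem/TA-like, 2.89. For stem/TA-like cells this took out cluster 11 under the GFP label and cluster 5 under the whole-epithelium label. The value of 2.89 therefore sets cycling cluster 3 against almost only the clusters named stem, and not like against like. Goblet-like cells gave no value because the library labelled GFP has 1 goblet cluster. Subtraction of the mean class II UMIs of T/NK-like cells gave 6.50, 6.60, 6.46 and 3.98, and leaves close to nothing in the library labelled whole epithelium because few T/NK-like cells set that mean. Of the alternatives added after seeing the data, subtraction of the UMIs of shallow unnamed clusters gave 1.98, 2.24, 2.23 and 1.78, leaving out cells with an antigen-presenting cell marker other than Cd14 gave 1.82 over all classes, and leaving out the Atp12a group gave 1.44 over all classes and 0.77 in colonocyte-like cells. Ciita reversed in 2 cases, to -0.23 in stem/TA-like cells without cells holding any antigen-presenting cell marker and to -0.73 in colonocyte-like cells without the Atp12a group; the cause was not tested. The number of the 7 genes at least 2-fold higher was 5 or 6 in all 18 alternatives.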
